A study of Mus musculus with 16 samples.

Results

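The genes altered by loss of the transcription factor Bhlhe40 were examined in large peritoneal macrophages (LPM) of untreated male C57BL/6 mice, by comparing the 3 arrays titled naive Bhlhe40KO LPM with the 3 titled naive Bhlhe40WT LPM, 6 of the series' 16 arrays. The knockout (KO) mice were Bhlhe40-/- and the wild-type (WT) mice Bhlhe40+/+, neither received an injection, and the cells were sorted from the peritoneal cavity. The other arrays held LPM of mice injected with IL-4c (complexed interleukin-4, given on days 0 and 2 with the mice killed on day 4; 2 WT, 2 KO and 2 of LysM-Cre+ Bhlhe40fl/fl mice, whose Cre is active in myeloid cells) and alveolar macrophages (AM) of untreated mice (2 WT and 2 KO). The deletion was present in every cell of the KO mice, so a difference in LPM may have arisen in other cells, and the labels do not say whether an array held 1 mouse or a pool, so the p-values below reflect only how far these arrays scatter, which may be technical.

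LPM are the most numerous resident macrophages of the peritoneal cavity, are renewed largely by their own division, and depend on the transcription factor Gata6. Bhlhe40 is a basic helix-loop-helix protein that binds the E-box letters CACGTG and mostly represses transcription; Bhlhe41 is its closest relative and belongs to the same clock-linked family. The transcription factor Maf, which restrains division of resident macrophages, is known to drive a group of scavenger and endocytic receptor genes in them.

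Values were log2 expression per gene after RMA, a normalization that gives arrays similar distributions. The 6 arrays had medians of 4.84 to 4.93, so a value near 4.9 is that of a gene in the middle of the array and carries no sign of expression by itself. Of 12 LPM marker genes, 11 were tested and none passed the test between genotypes. They averaged 11.16, 11.18 and 11.21 on the WT arrays and 11.05, 11.02 and 11.02 on the KO arrays, so every KO array was below every WT array, and 2 of the 11 differences were above 0 (median -0.19). The size depended on scaling, since the median was -0.09 when the arrays were quantile normalized again. Gata6 read 8.92, 8.95 and 8.90 in WT and 8.54, 8.75 and 8.72 in KO, against a mean of 4.61 in WT AM (difference -0.25 ± 0.16 SE, adjusted p = 0.488). The WT arrays correlated with each other at 0.994 to 0.995 (Pearson's r over the probe sets of 2 arrays, a description only), the KO arrays at 0.990 to 0.992, and WT with KO at 0.989 to 0.991. KO replicates 1 and 2 had a narrower distribution than the other 4 arrays, with 75th percentiles of 6.64 and 6.64 against 6.74 to 6.75.

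Of 11634 genes tested, 219 passed an adjusted p of 0.05 between KO and WT (1.88% of those tested; limma), 62 of them higher in KO (0.533%) and 157 lower (1.35%). Rises were fewer and larger: 26 of the 62 were at least 2-fold and their median difference was 0.86 log2, while 30 of the 157 falls were at least 2-fold and their median was -0.68. Of the rises, 10 were below the array median on all WT arrays (Bhlhe41, Cd28, Pparg and Arhgap6 among those described here), and of the falls 16 were below it on all KO arrays (Stk26, Me1 and Clec12a among them), so the dim group of these genes may be at background and the size of their difference is less certain. The WT and KO arrays did not overlap for any of the 219 genes, against 2675 of all genes tested (23%). Without regard to multiple testing, 1754 genes had p under 0.05. When each of the 6 arrays was left out in turn, 24 of the 62 rises and 28 of the 157 falls passed every time. All 219 kept their sign, but that was fixed in advance. Where the groups do not overlap, leaving an array out cannot change the sign of a probe set's difference. In bulk RNA, fewer cells of a type and less RNA per cell cannot be told apart. The plot of the largest changes shows each array.

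**Figure D1:**
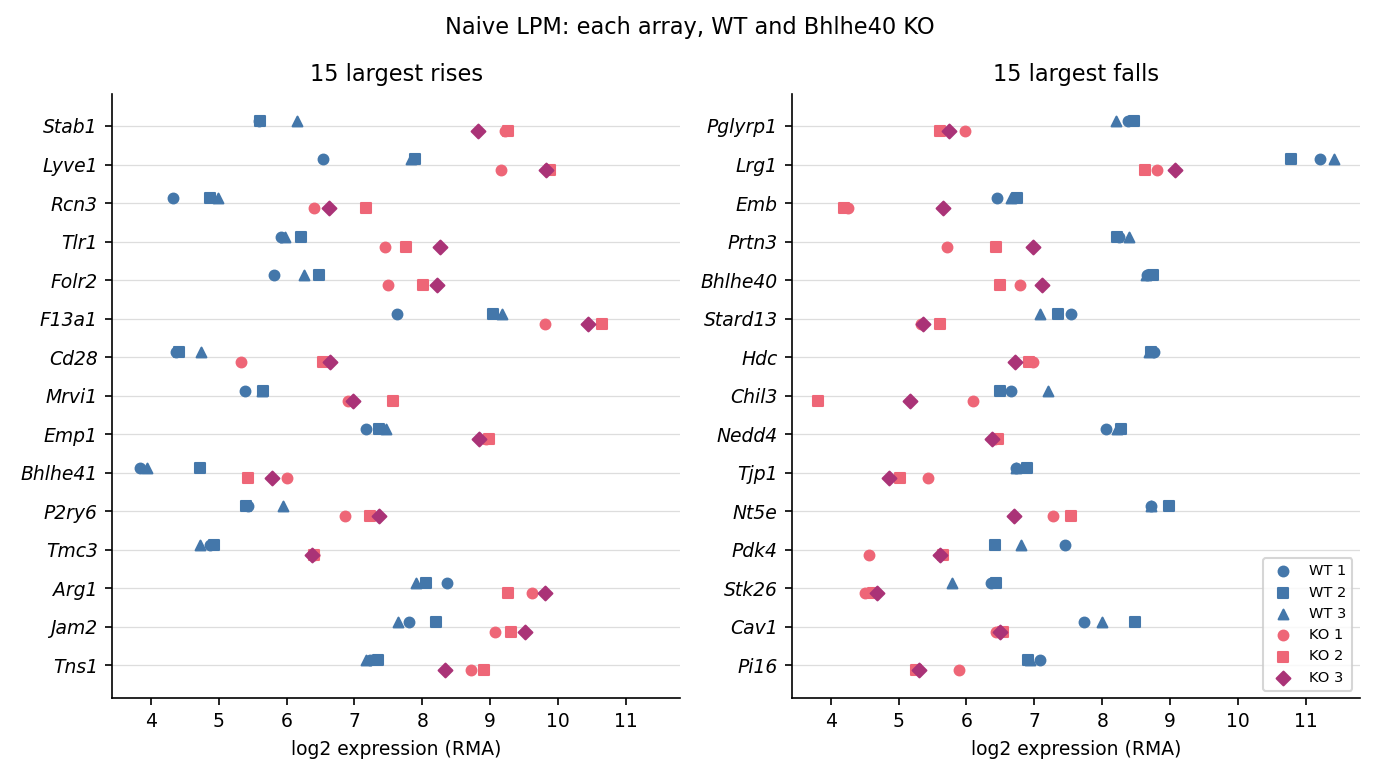
Log2 expression on each of the 6 naive LPM arrays (horizontal axis) for the 15 largest rises (left) and 15 largest falls (right); blue symbols are WT arrays, red symbols KO replicates 1 and 2, and the purple diamond KO replicate 3. WT and KO points are separate in every row; Stab1 moved from 5.60 to 6.15 in WT to 8.82 to 9.26 in KO, and Emb is the row in which KO replicate 3 (5.66) stands farthest from the other KO arrays (4.25 and 4.20).

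Bhlhe40 itself (chr6:108660629-108666925, GRCm38.p6) read 8.66, 8.75 and 8.64 in WT and 6.79, 6.50 and 7.11 in KO. The groups were far apart, with a difference of -1.89 ± 0.15 SE (3.7-fold lower, adjusted p = 6.38e-06), and every KO array kept a signal above its array median. The labels do not state which exons were removed, so the remaining signal was not resolved further. Bhlhe41, on the same chromosome (chr6:145858243-145865420), read 3.84, 4.73 and 3.94 in WT and 6.01, 5.43 and 5.79 in KO. Thus a gene in the lower part of the WT arrays rose above the array median on all KO arrays, by 1.57 ± 0.31 (2.98-fold, adjusted p = 0.0162). That call is thin: adjusted p lay between 0.05 and 0.092 without WT replicate 1, WT replicate 3, KO replicate 1 or KO replicate 3. Of 25 clock genes and E-box targets tested, these 2 and Id2 were the ones that passed. Arntl, Clock and the Per and Cry genes did not pass; Per1, which feeds back on the clock, differed by -0.63 (adjusted p = 0.2).

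Because Bhlhe40 binds CACGTG, promoter windows of 250 bases before to 50 after the start were read from RefSeq (GRCm38.p6) and searched for CACGTG, which reads the same on both strands, and for TGCTGAC on either strand, the core of the element bound by Maf proteins. As written the motifs can overlap by at most 2 bases. Of the 62 raised genes 49 had a window and 6 held CACGTG (12.2%), against 10 of 126 lowered genes with a window (7.94%) and 1097 of 9327 tested genes (11.8%); over all 32851 windows in the table the share was 7.15%. For TGCTGAC the shares were 4.08% (2 genes), 3.97% (5 genes) and 4.61% in the same order, and 4.67% of all windows. The share among raised genes was therefore close to that of all tested genes for both motifs. The raised genes with CACGTG, named after their values were seen, were Bhlhe41, Tlr1, Prok2, Slamf9, Golim4 and Slc6a3. The windows of Bhlhe41 and Tlr1 are shown because these were the largest rises among them, Fcna because it is a raised Maf-associated gene with TGCTGAC, and Sc5d because it is a lowered enzyme of sterol synthesis with CACGTG; capitals mark the motif, and a match is a description, not a binding site. All 4 genes lie on the minus strand, and relative to the start the motif begins at base -153 in Bhlhe41 (chr6:145865371-145865670), -195 in Tlr1 (chr5:64932650-64932949), -107 in Fcna (chr2:25627925-25628224) and -98 in Sc5d (chr9:42264251-42264550).
Bhlhe41: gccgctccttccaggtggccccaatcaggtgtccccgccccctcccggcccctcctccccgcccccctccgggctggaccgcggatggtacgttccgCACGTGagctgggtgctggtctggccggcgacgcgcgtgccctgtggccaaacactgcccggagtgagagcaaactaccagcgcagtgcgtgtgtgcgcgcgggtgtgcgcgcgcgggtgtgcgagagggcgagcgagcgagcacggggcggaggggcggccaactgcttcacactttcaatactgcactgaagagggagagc
Tlr1: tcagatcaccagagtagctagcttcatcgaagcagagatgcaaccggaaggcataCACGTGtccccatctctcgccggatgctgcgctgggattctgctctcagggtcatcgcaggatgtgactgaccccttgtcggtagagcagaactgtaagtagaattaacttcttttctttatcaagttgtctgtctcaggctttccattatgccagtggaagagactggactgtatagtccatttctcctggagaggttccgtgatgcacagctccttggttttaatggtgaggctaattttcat
Fcna: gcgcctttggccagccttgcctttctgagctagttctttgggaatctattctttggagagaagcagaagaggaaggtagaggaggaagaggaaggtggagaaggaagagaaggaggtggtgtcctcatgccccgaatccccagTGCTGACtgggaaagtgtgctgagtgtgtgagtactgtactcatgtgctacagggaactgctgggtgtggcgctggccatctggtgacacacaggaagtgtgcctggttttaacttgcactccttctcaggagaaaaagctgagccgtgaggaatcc
Sc5d: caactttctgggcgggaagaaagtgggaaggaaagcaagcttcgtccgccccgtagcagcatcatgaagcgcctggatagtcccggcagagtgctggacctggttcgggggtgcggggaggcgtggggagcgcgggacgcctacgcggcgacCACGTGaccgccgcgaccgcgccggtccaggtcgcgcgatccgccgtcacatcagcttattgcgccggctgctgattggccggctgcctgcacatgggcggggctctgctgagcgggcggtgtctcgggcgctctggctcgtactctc

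Scavenger receptor genes gave the largest rises. Stab1 (chr14:31139017-31168651), which encodes stabilin-1, an endocytic receptor for modified lipoproteins and matrix fragments, read 5.60, 5.62 and 6.15 in WT and 9.22, 9.26 and 8.82 in KO. Every KO array lay well over 2 log2 units above every WT array, and the difference of 3.31 ± 0.18 (9.95-fold, adjusted p = 5.74e-08) was the largest of the 219. Lyve1, a hyaluronan receptor, read 6.54, 7.90 and 7.83 in WT and 9.16, 9.88 and 9.81 in KO (2.19 ± 0.31, adjusted p = 0.00161). WT replicate 1 was low for Lyve1, but the gap between the lowest KO and the highest WT array remained over 1 unit. Folr2, the folate receptor beta of resident macrophages, read 5.81, 6.47 and 6.26 in WT and 7.50, 8.01 and 8.22 in KO (1.73 ± 0.24, adjusted p = 0.00128). Stab1, Lyve1 and Folr2 passed whichever naive array was left out.

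Smaller rises in the same list were those of Cd163, the receptor for haptoglobin-bound haemoglobin, by 1.13 ± 0.21 (adjusted p = 0.0106), and Fcna, which encodes the lectin ficolin-A, by 0.79 ± 0.17 (adjusted p = 0.0276). Cd163 did not pass without WT replicate 1 or KO replicate 1 (highest adjusted p 0.059), and Fcna passed with no array left out in turn (highest 0.105), although their WT and KO arrays did not overlap. Cd209b, a C-type lectin that binds microbial sugars, went the other way, from 5.90, 6.34 and 6.35 in WT to 4.14, 5.16 and 5.04 in KO (-1.41 ± 0.22, adjusted p = 0.00332). Of 30 scavenger and endocytic receptors tested, 5 rose and 1 fell, and the median difference was 0.07 against -0.03 over all genes tested. KO replicates 1 and 2 were both above all WT arrays for 12 of the 30, against 1610 of the 11634 genes tested. They were both below for 7 (23.3%), against 3045 of all genes tested (26.2%), so the share below was near that of all genes.

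Of 29 genes associated with Maf in resident macrophages, 7 rose and none fell (median 0.22). They were Stab1, Lyve1, Folr2, Cd163 and Fcna, with F13a1 and Wwp1. F13a1, the enzyme subunit of coagulation factor XIII, read 7.63, 9.04 and 9.18 in WT and 9.81, 10.64 and 10.44 in KO (1.68 ± 0.40, adjusted p = 0.0407), and passed only without WT replicate 3 (highest adjusted p 0.159 with any other array left out). WT replicate 1 was thus the lowest array for both Lyve1 and F13a1. Wwp1, a ubiquitin ligase, rose by 0.60 ± 0.14 (adjusted p = 0.0381) and passed only without KO replicate 1. Maf itself read 6.32, 6.41 and 6.60 in WT and 6.83, 6.91 and 6.86 in KO; the groups did not overlap, but the difference of 0.42 ± 0.16 did not pass (adjusted p = 0.2). The WT arrays averaged 8.23, 8.48 and 8.58 over the 29 genes, and the KO arrays 8.89, 9.01 and 9.01. The complement genes C1qa, C1qb and C1qc, which are in the same list, differed by -0.02, -0.05 and -0.01 and did not pass.

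Among sensors and receptors for signals from other cells, Tlr1 changed most. Tlr1, the partner of Tlr2 for bacterial lipopeptides, read 5.92, 6.21 and 5.98 in WT and 7.44, 7.76 and 8.26 in KO (1.79 ± 0.17, adjusted p = 3.03e-05). It was the sole member to pass of 31 Toll-like receptors and innate sensors tested, whose median was -0.09. P2ry6, the receptor for UDP released by damaged cells, read 5.43, 5.40 and 5.94 in WT and 6.86, 7.23 and 7.36 in KO (1.56 ± 0.26, adjusted p = 0.00469). Gpr183, a receptor for oxysterols that guides cell migration, read 5.02, 5.70 and 5.60 in WT and 6.34, 7.05 and 6.99 in KO (1.36 ± 0.20, adjusted p = 0.00186). These 3 genes passed with any naive array left out.

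Cd28, best known as the costimulatory receptor of T cells, read 4.37, 4.41 and 4.74 in WT and 5.33, 6.53 and 6.64 in KO (1.66 ± 0.29, adjusted p = 0.00843; adjusted p = 0.05 without KO replicate 2). Of 16 T and NK cell markers listed, 3 were tested and none passed, and all 3 differences were above 0 (median 0.29). A gene was tested if it exceeded the array median on at least 2 of the series' arrays. Dim markers can meet that rule through the KO arrays, so the signs of these 3 may follow from the filter. The 3 averaged 4.78, 4.77 and 4.85 on the WT and 5.11, 5.11 and 4.93 on the KO arrays. The whole list's average was 3.63 to 3.77 in WT and 3.85 to 3.93 in KO. The part of T cells in the Cd28 result was not tested. Cx3cr1, the fractalkine receptor, rose by 0.66 ± 0.13 (adjusted p = 0.0175), from 5.39, 5.60 and 5.43 to 6.29, 6.27 and 5.85. It failed without WT replicate 1, WT replicate 3, KO replicate 1 or KO replicate 2 (highest adjusted p 0.096). Of 21 markers of monocytes, dendritic cells and the small peritoneal macrophages, 15 were tested; Cx3cr1 rose, Irf4 fell, and the list's average was 5.38 to 5.44 in WT and 5.45 to 5.53 in KO. Jam2, a junctional adhesion molecule, read 7.80, 8.20 and 7.65 in WT and 9.06, 9.30 and 9.52 in KO (1.41 ± 0.27, adjusted p = 0.0133) and passed only without WT replicate 2 or KO replicate 1 (highest adjusted p 0.066).

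Rises in enzymes and regulators were few. Arg1, the arginase of alternatively activated macrophages, read 8.36, 8.05 and 7.91 in WT and 9.61, 9.26 and 9.81 in KO (1.46 ± 0.16, adjusted p = 0.000107). Pparg, a nuclear receptor of lipid handling, read 4.60, 4.69 and 4.85 in WT and 5.34, 5.51 and 5.90 in KO (0.87 ± 0.15, adjusted p = 0.00504). Both were separate in every array and passed with any array left out. Of 37 alternative activation genes tested, these and Cd163 rose, while Chil3 and Irf4 fell. In iron and heme handling, 2 of 20 genes rose, Cd163 and Cp, which encodes the ferroxidase ceruloplasmin (0.77 ± 0.15, adjusted p = 0.0144; 0.082 at most, without WT replicate 1 or KO replicate 2).

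Several of the largest rises lay outside these groups. Rcn3, a calcium-binding protein of the endoplasmic reticulum, read 4.33, 4.87 and 4.99 in WT and 6.40, 7.17 and 6.63 in KO (2.00 ± 0.22, adjusted p = 0.000147). Tmc3, of the transmembrane channel-like family, was among the tightest: 4.87, 4.93 and 4.73 in WT against 6.41, 6.40 and 6.37 in KO (1.55 ± 0.13, adjusted p = 7.78e-06). Mrvi1, a target of cGMP-dependent kinase at the inositol trisphosphate receptor, rose by 1.59 ± 0.18 (adjusted p = 0.000154). Emp1, a tetraspan membrane protein, rose by 1.58 ± 0.22 (adjusted p = 0.00143), and Tns1, which links integrins to actin, by 1.41 ± 0.17 (adjusted p = 0.000403). All 5 passed with any naive array left out. Arhgap6 rose by 0.69 ± 0.14 (adjusted p = 0.0229) but failed without WT replicate 1, WT replicate 3, KO replicate 2 or KO replicate 3 (highest adjusted p 0.123).

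Secreted and granule proteins gave the largest falls. Pglyrp1 (chr7:18884690-18890438), a peptidoglycan-binding antibacterial protein, read 8.38, 8.47 and 8.21 in WT and 5.98, 5.61 and 5.74 in KO (-2.58 ± 0.31, adjusted p = 0.0003). Lrg1, a secreted leucine-rich glycoprotein, read 11.21, 10.77 and 11.41 in WT and 8.80, 8.63 and 9.06 in KO (-2.30 ± 0.22, adjusted p = 3.03e-05). Hdc, the enzyme that makes histamine, read 8.76, 8.72 and 8.69 in WT and 6.98, 6.92 and 6.71 in KO (-1.86 ± 0.21, adjusted p = 0.000147). The KO arrays of these 3 genes lay over 1.5 units below every WT array, and the calls held with any array left out.

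Prtn3, the neutrophil serine protease proteinase 3, read 8.24, 8.22 and 8.40 in WT and 5.71, 6.44 and 6.98 in KO (-1.91 ± 0.37, adjusted p = 0.014). Its KO arrays spread over more than 1 unit, and it passed only without KO replicate 3 (adjusted p up to 0.068 with any other array left out). Chil3, the chitinase-like lectin Ym1, read 6.66, 6.50 and 7.20 in WT and 6.09, 3.81 and 5.17 in KO (-1.76 ± 0.37, adjusted p = 0.021). The KO arrays of Chil3 spread over more than 2 units, and it failed without any one of the WT arrays (highest adjusted p 0.11). Of 23 granule and antimicrobial genes tested, none rose and 5 fell, the median was -0.15, and the WT arrays averaged 8.52, 8.47 and 8.64 over it and the KO arrays 8.17, 7.93 and 8.11. The other granule proteases, Elane, Mpo and Ctsg, did not reach the level for testing and read 3.49 to 4.56 on all 6 arrays.

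Markers of other cells were read beside these falls, since Prtn3 and Hdc are also neutrophil and mast cell genes. Of 18 neutrophil markers 9 were tested; Prtn3 and Csf3r fell, 12 of the 18 were below the array median on all 6 arrays, Ly6g read 2.73 to 3.08, and the 18 averaged 4.56, 4.58 and 4.71 on the WT and 4.51, 4.46 and 4.55 on the KO arrays. The 9 tested ones averaged 5.51, 5.57 and 5.76 in WT and 5.30, 5.18 and 5.49 in KO, and 2 of their differences were above 0 (median -0.20, and -0.36 without KO replicate 3). Of 13 mast cell and basophil markers 3 were tested; Hdc fell, 10 of the 13 were below the array median on all 6 arrays, Cpa3 read 3.72 to 4.30, and the average of the 13 was 3.85 to 4.08 in WT and 3.79 to 3.93 in KO. Ly6g and Cpa3 were thus below the array median in both genotypes, while the average of the tested neutrophil markers was lower on every KO array than on any WT array. That average includes Prtn3 and Csf3r, the 2 called falls, so it is not separate from them. The part of neutrophils in these falls was not tested.

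Of 38 peritoneal macrophage identity genes tested, 1 rose (Arg1) and 4 fell (Lrg1, Nt5e, Ptgis and Garnl3), 10 had a difference above 0 (26.3%, against 43.2% of all genes tested), and the WT arrays averaged 9.96, 9.88 and 9.94 and the KO arrays 9.62, 9.62 and 9.58. The list's median was -0.20, and -0.11 when the arrays were quantile normalized again. Nt5e, the ectoenzyme CD73 that makes adenosine, read 8.72, 8.99 and 8.73 in WT and 7.28, 7.53 and 6.71 in KO (-1.64 ± 0.31, adjusted p = 0.014). Nt5e failed without WT replicate 1, WT replicate 2 or KO replicate 3 (highest adjusted p 0.068). Garnl3 fell by 0.76 on the log2 scale (adjusted p = 0.0407), failed without WT replicate 1, WT replicate 2, KO replicate 2 or KO replicate 3 (highest 0.169), and its adjusted p was 0.105 after the further quantile normalization. Timd4, a phosphatidylserine receptor of long-resident LPM, read 10.21, 10.44 and 10.73 in WT and 9.83, 10.03 and 9.86 in KO; the groups did not overlap, and the difference of -0.56 did not pass (adjusted p = 0.195).

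**Figure D2:**
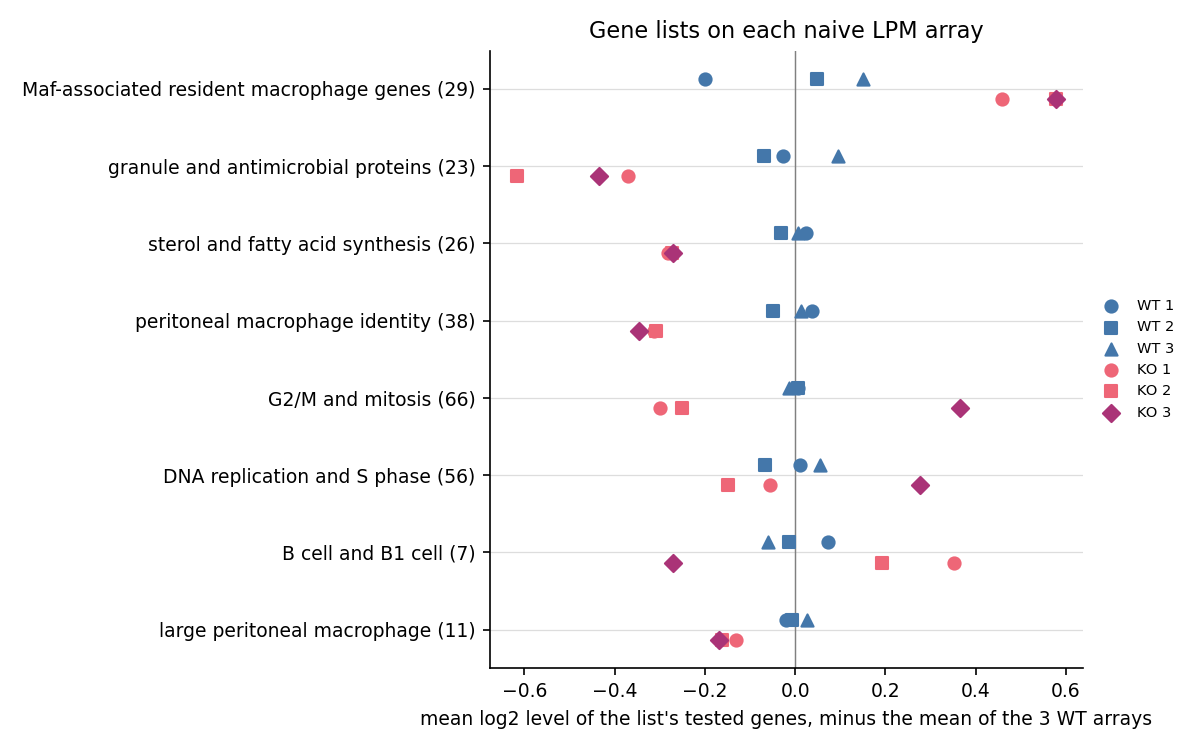
For 8 gene lists (tested genes in brackets), the average log2 level on each naive LPM array minus the mean of the 3 WT arrays; blue symbols are WT arrays, red symbols KO replicates 1 and 2, and the purple diamond KO replicate 3. The 3 KO arrays lie together above WT for Maf-associated genes and below WT for granule, sterol and identity genes, while for G2/M genes KO replicates 1 and 2 averaged 5.41 and 5.46 and KO replicate 3 averaged 6.07, against 5.69 to 5.71 in WT.

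Of 26 sterol and fatty acid synthesis genes tested, none rose and 3 fell, and 3 had a difference above 0 (11.5%). The WT arrays averaged 6.12, 6.06 and 6.10 over this list and the KO arrays 5.81, 5.82 and 5.82, and its median of -0.25 became -0.19 after either the further quantile normalization or centring on the tested genes. Me1, the malic enzyme that supplies NADPH for lipid synthesis, read 5.89, 5.50 and 5.18 in WT and 4.27, 4.18 and 4.04 in KO (-1.36 ± 0.21, adjusted p = 0.00326), and passed with any array left out. Acaca, acetyl-CoA carboxylase, which commits carbon to fatty acids, read 8.87, 8.84 and 8.84 in WT and 8.24, 7.86 and 7.99 in KO (-0.82 ± 0.17, adjusted p = 0.02). Sc5d, a late enzyme of cholesterol synthesis, read 7.39, 7.37 and 7.23 in WT and 6.31, 6.41 and 6.88 in KO (-0.80 ± 0.16, adjusted p = 0.0159). Both were separate between groups but less firm: Acaca passed only without KO replicate 1 (highest adjusted p 0.092), and Sc5d only without WT replicate 3 or KO replicate 3 (highest 0.078). Srebf2, the regulator of the sterol genes, differed by -0.32 and did not pass (adjusted p = 0.335), and of 19 LXR targets and cholesterol efflux genes none passed.

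Of 22 eicosanoid enzymes tested, 2 fell and none rose. Pla2g7, which inactivates platelet-activating factor, read 10.37, 10.56 and 10.41 in WT and 9.22, 9.51 and 9.14 in KO (-1.15 ± 0.14, adjusted p = 0.000403). Ptgis, prostacyclin synthase, read 9.70, 9.62 and 9.94 in WT and 8.77, 8.89 and 8.72 in KO (-0.96 ± 0.13, adjusted p = 0.00128). Both passed with any array left out. In glucose and oxygen handling, 1 of 25 genes fell, Egln3, a prolyl hydroxylase of hypoxia-inducible factors (-0.99 ± 0.23, adjusted p = 0.0338; it failed with each naive array left out in turn, highest 0.151), and none of 36 oxidative phosphorylation genes passed. Pdk4, which inhibits pyruvate dehydrogenase, was not in that list; it read 7.45, 6.42 and 6.81 in WT and 4.57, 5.65 and 5.61 in KO (-1.62 ± 0.38, adjusted p = 0.0407) and failed with each array left out in turn (highest adjusted p 0.165).

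Among regulators, 2 of 56 macrophage transcription factors rose (Bhlhe41 and Pparg) and 4 fell (Bhlhe40, Id2, Irf4 and Batf). Id2, an inhibitor of E proteins, read 10.26, 9.76 and 9.85 in WT and 8.71, 8.31 and 8.78 in KO (-1.35 ± 0.22, adjusted p = 0.00377), with more than 0.9 units between the groups on every array, and passed with any array left out. Irf4, which acts in alternative activation, read 6.03, 5.98 and 6.08 in WT and 5.13, 5.47 and 5.64 in KO (-0.61 ± 0.13, adjusted p = 0.0192) and passed only without KO replicate 3 (highest 0.085). Batf fell by 0.57 on the log2 scale (adjusted p = 0.0472), failed with each array left out (highest 0.162), and had adjusted p = 0.098 after the further quantile normalization. Of 35 immediate early genes, which respond to cell isolation, 2 fell and none rose (median -0.16). They were Rgs2, a brake on Gq signalling (9.86, 9.91 and 9.63 in WT, 9.14, 9.13 and 9.23 in KO; -0.64 ± 0.13, adjusted p = 0.0162; highest 0.088, failing without WT replicate 1, WT replicate 2, KO replicate 1 or KO replicate 2), and Btg2, an antiproliferative gene (-0.59 ± 0.14, adjusted p = 0.0383). Btg2 failed with each array left out (highest 0.143) and under the further quantile normalization (0.098).

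Falls in adhesion, shape and signalling genes were mostly single members of their lists. Stard13 read 7.54, 7.35 and 7.08 in WT and 5.34, 5.61 and 5.36 in KO (-1.88 ± 0.15, adjusted p = 6.38e-06). Nedd4, a ubiquitin ligase of membrane proteins, was tighter still, at 8.05, 8.27 and 8.21 in WT and 6.42, 6.47 and 6.37 in KO (-1.76 ± 0.13, adjusted p = 4.28e-06). Stk26, a kinase of the germinal centre kinase family, fell by 1.59 on the log2 scale (adjusted p = 2.46e-05), to levels below the array median on all KO arrays. Cav1, the coat protein of caveolae, fell by 1.58 (adjusted p = 0.00281), and Pi16, a peptidase inhibitor, by 1.49 (adjusted p = 0.00391). These 5 passed with any array left out. Tjp1, the tight junction scaffold ZO-1, fell by 1.68 (adjusted p = 0.0126; 0.059 at most, without WT replicate 2 or KO replicate 2).

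Of 39 integrins and adhesion molecules, Jam2 rose and Emb and Cd81 fell. Cd81, a tetraspanin, fell by 0.67 (adjusted p = 0.0273), passed only without KO replicate 2 (highest 0.111), and did not pass after the further quantile normalization (0.109). Of 38 chemokine and cytokine receptors, Ccrl2, a receptor that presents chemerin, fell by 0.92 (adjusted p = 0.0205) and Csf3r, the G-CSF receptor, by 0.85 (adjusted p = 0.0106). Ccrl2 passed only without WT replicate 3 (highest 0.115), while Csf3r failed only without WT replicate 2 (0.057). Hcar2, a receptor for ketone bodies and niacin, fell by 1.30 (adjusted p = 0.0311) but failed with each array left out (highest 0.126). Of 36 Fc receptor and phagocytosis genes, Clec12a, an inhibitory lectin, fell by 0.63 (adjusted p = 0.0111; 0.058 at most, without WT replicate 2, WT replicate 3 or KO replicate 2) and Fcgr3, an activating Fc receptor, by 0.46 (adjusted p = 0.046; 0.187 at most, failing with each array left out, and 0.174 after the further quantile normalization).

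No member passed among 38 chemokines and cytokines, 16 complement genes, 13 MHC class II genes, 25 interferon-stimulated genes, 33 lysosomal genes, 56 S-phase genes or 66 G2/M genes. Over all genes tested 1.88% passed, so lists this small would hold few calls or none, and their absence does not set these functions apart. The same holds for the LPM marker, LXR and oxidative phosphorylation lists above. Of the 62 raised genes 19 (30.6%) and of the 157 lowered genes 28 (17.8%) belonged to any of the 31 function lists, which held 847 of all genes tested (7.28%). The lists were chosen with earlier results of these data known, so these shares are a description.

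KO replicate 3 was the KO array farthest from the others across all genes tested. Its deviation from the mean of the other KO arrays had a standard deviation of 0.277, against 0.247 for KO replicate 1 and 0.235 for KO replicate 2. Large deviations were limited to few genes. KO replicate 3 lay over 2-fold from the mean of the other KO arrays for 51 genes, 45 of them above and 6 below. The count was 26 genes for KO replicate 1, 16 for KO replicate 2 and 4 to 14 for the WT arrays. Of the 45 genes above, 13 (28.9%) belonged to the S-phase or G2/M lists, which held 122 of all genes tested (1.05%), and 1 (2.22%), Emb, was among the 219, against 1.88% of all genes tested. The genes highest on it were Cenph, a kinetochore protein (4.33 and 3.68 on KO replicates 1 and 2, 5.75 on KO replicate 3), Snord49a, a small nucleolar RNA (4.39, 4.82 and 6.06), Emb, Kif22, a mitotic kinesin (4.56, 4.48 and 5.93), Depdc1a (4.06, 3.85 and 5.21) and Anln, which acts in cytokinesis (5.55, 5.38 and 6.68). Those lowest on it were Snora41, Snord35b, Mir181b-2, Dhrs11, Cd79b and Slc35e3.

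The whole G2/M list followed this pattern. KO replicate 3 was the highest of the 6 arrays for 51 of the 66 genes, against 21.5% of all genes tested, and KO replicates 1 and 2 both lay below all WT arrays for 36, against 26.2% of all genes tested. The WT arrays averaged 5.71, 5.71 and 5.69 over this list, and the KO arrays 5.41, 5.46 and 6.07. Top2a, which untangles DNA in dividing cells, had a WT mean of 7.10 and read 6.28, 6.46 and 7.45 in KO. Kif15, a mitotic kinesin, read 5.50, 5.45 and 5.34 in WT and 4.80, 4.87 and 5.84 in KO. Mki67, the proliferation marker Ki-67, read 6.83, 6.84 and 6.74 in WT and 6.48, 6.27 and 7.41 in KO. In all 3 genes the KO arrays lay on either side of WT, so the 3 KO arrays have no common direction for division genes.

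The median KO minus WT difference of the G2/M list was -0.08, and -0.30 without KO replicate 3, where Top2a (-0.73, adjusted p = 0.0377) and Racgap1, a regulator of cytokinesis (-0.79, adjusted p = 0.0456), passed. The 56 S-phase genes averaged 5.53, 5.45 and 5.57 in WT and 5.46, 5.37 and 5.79 in KO, and the median moved from 0.04 to -0.08, with no member passing in either case. The plot of cell cycle genes gives every member.

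**Figure D3:**
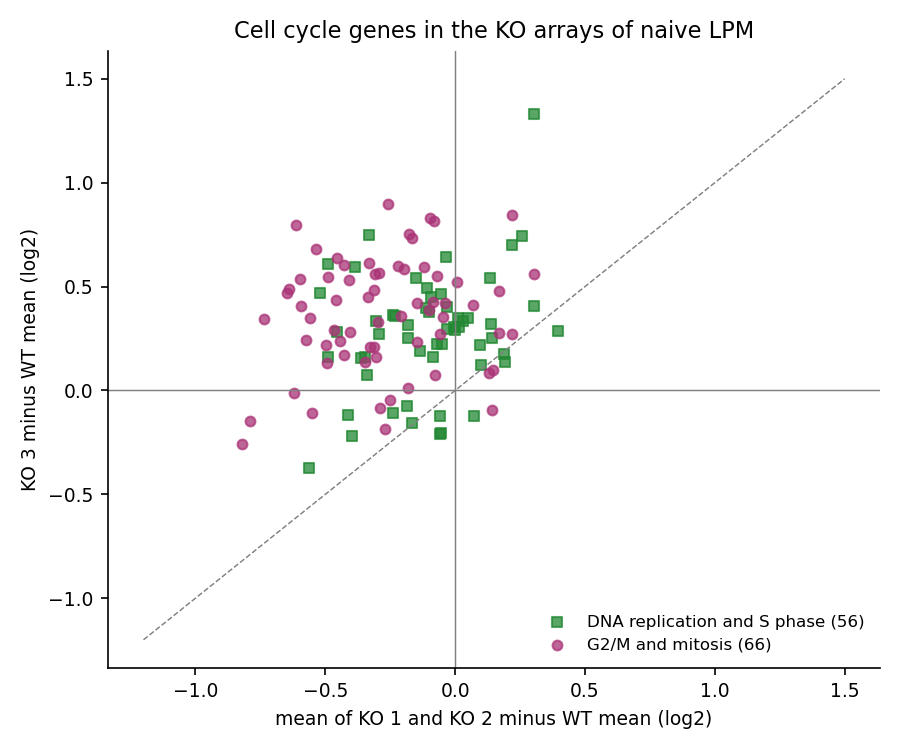
Each point is a tested S-phase gene (56, green squares) or G2/M gene (66, purple circles); the horizontal axis is the mean of KO replicates 1 and 2 minus the WT mean and the vertical axis KO replicate 3 minus the WT mean (log2). The dashed line marks equal values. The G2/M genes have medians of -0.30 on the horizontal and 0.40 on the vertical axis.

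KO replicate 3 also read lower than the other KO arrays for markers of several other cell types, B cells most. The 7 B-cell markers tested averaged 5.54, 5.45 and 5.40 on the WT and 5.82, 5.66 and 5.19 on the KO arrays. Cd79b, a chain of the B-cell receptor, read 6.56, 5.77 and 5.79 in WT and 6.30, 6.12 and 5.23 in KO. Cd79a, its partner chain, read 4.32, 5.07 and 4.68 in WT and 5.52, 5.12 and 4.53 in KO. No B-cell marker passed with or without KO replicate 3, and 5 of the 14 listed were below the array median on all 6 arrays. The 5 mesothelial and stromal markers tested averaged 4.94, 4.91 and 5.04 on the WT and 5.24, 5.18 and 4.88 on the KO arrays, and all 5 were lowest among the KO arrays on KO replicate 3. So were 2 of 3 T and NK cell markers and both of 2 erythroid markers, against 30.7% of all genes tested. Dim markers can enter the test because KO replicates 1 and 2 are high, which favours a low KO replicate 3, so these counts carry no weight. Averages over all markers with a probe set, tested or not, do not depend on that filter. On the KO arrays they were 5.19, 4.99 and 4.59 for B cells and 4.38, 4.42 and 4.25 for mesothelial and stromal markers. Not all lists went this way. Of the 9 neutrophil markers tested, KO replicate 3 was the highest KO array for 5 and the lowest for 1, with a median of 0.24 above the mean of the other KO arrays. The same median was 0.09 for 2 eosinophil and 0.07 for 4 megakaryocyte and platelet markers. The part of these transcripts in the other differences was not tested.

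Without KO replicate 3 the comparison rested on 2 KO and 3 WT arrays and called 163 genes (1.4%), 51 higher (0.439%) and 112 lower (0.964%). Of the 219 calls 114 were shared, 41 raised and 73 lowered, and 49 genes were called only without it. Large changes were kept more often: 22 of 26 rises and 27 of 30 falls of at least 2-fold, against 19 of 36 smaller rises and 46 of 127 smaller falls. The median rise was 0.86 with and 0.82 without this array, and the median fall -0.68 in both cases. The medians of the 219 genes were thus of like size with and without it, while fewer of the smaller ones passed. These genes were picked with KO replicate 3 in the fit, and on all of them it lay on the same side of WT as the other KO arrays. Like medians in this set therefore do not measure what the array does to differences in general.

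Among the rises, Bhlhe41 (0.0502), F13a1 (0.103), Jam2 (0.0515) and Ifnz, an interferon zeta gene (0.0508), missed the threshold without KO replicate 3. Among the falls, Nt5e (0.0551), Pdk4 (0.0557), Glrx, a glutaredoxin (0.0541), Ppp1ca, a catalytic subunit of protein phosphatase 1 (0.0517), and Emc10, of the membrane insertion complex of the endoplasmic reticulum (0.0541), did so. Emb, a partner of lactate transporters, went from a fall of 1.91 to a fall of 2.39 and passed both times (6.45, 6.74 and 6.66 in WT, 4.25, 4.20 and 5.66 in KO). With all arrays it failed without WT replicate 2, KO replicate 1 or KO replicate 2 (highest adjusted p 0.057). The strongest calls seen only without this array were falls of Clec2i, a lectin-like ligand of natural killer receptors (-1.45, adjusted p = 0.00455), Net1 (-0.99, 0.00629), Tmem41b (-0.95, 0.0144), Zfp273 (-0.73, 0.019), Dnajc9, a histone chaperone (-0.65, 0.0206), and Scoc (-1.07, 0.0214). For each of these 6 genes KO replicate 3 read above both other KO arrays, as Clec2i shows: 7.46, 7.58 and 7.44 in WT and 5.86, 6.22 and 7.25 in KO. The choice of genes favours this, since a fall called only without an array tends to be one that the array weakens.

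KO replicate 3 was not the array the count depended on most. Leaving out WT replicate 1, 2 or 3 gave 75, 81 and 104 calls in all, and leaving out KO replicate 1 or 2 gave 104 and 96, each fewer than the 163 without KO replicate 3. An estimate of array quality within limma gave KO replicate 3 the lowest weight of the 6 (0.586, against 0.947 and 1.21 for the other KO arrays and 1.26 to 1.67 for WT), and with these weights 419 genes were called, 104 higher and 315 lower.

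**Figure D4:**
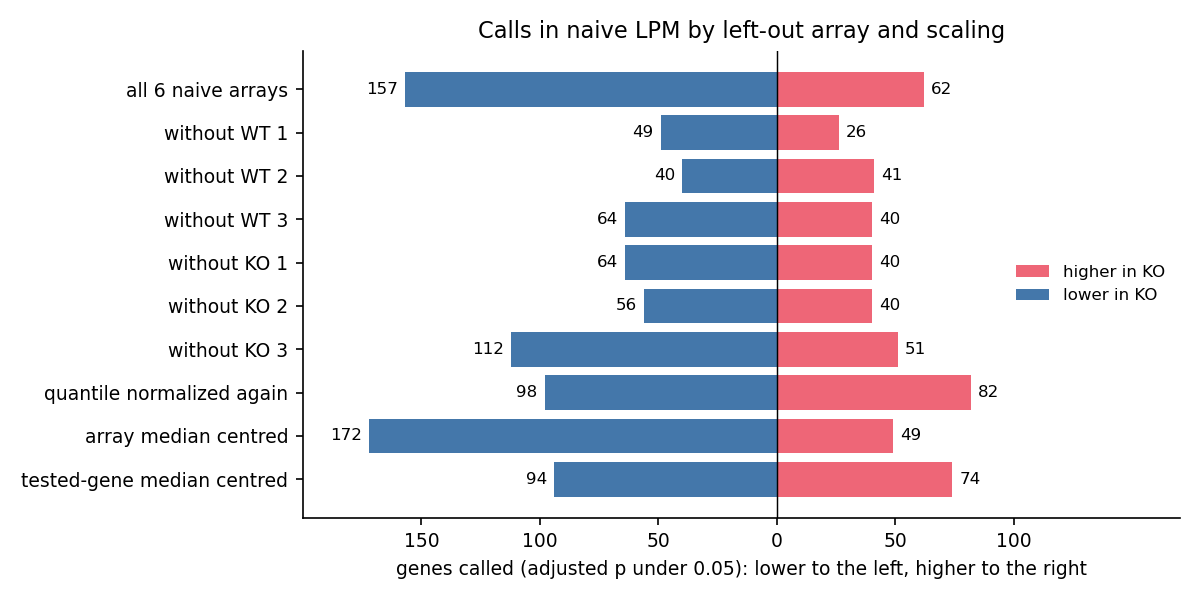
Genes called in naive LPM (adjusted p under 0.05), lower in KO to the left and higher to the right of 0, with all arrays, with each naive array left out, and with 3 other scalings of the arrays. Without KO replicate 3, 112 lower and 51 higher genes are called, more than without any other array, and 73 and 41 of them are also called with all arrays. The share of higher genes is largest among the scalings after quantile normalization (82 higher, 98 lower).

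The balance of rises and falls depended on scaling and on single arrays, and the distributions of KO replicates 1 and 2 were the narrower ones; their part in it was not tested. With the deposited values 28.3% of the calls were higher in KO. The share was 45.6% after a further quantile normalization (82 higher and 98 lower), 44% when arrays were centred on the median of the tested genes (74 and 94), and 22.2% when centred on the median of all probe sets (49 and 172). In that order 60, 62 and 48 of the 62 rises and 96, 94 and 153 of the 157 falls were called again. All 26 rises of at least 2-fold were called under each of these scalings, and 30, 29 and 30 of the 30 falls of that size, so both the rises and the falls that were lost were nearly all smaller ones. With 1 array left out the share higher in KO was 50.6% without WT replicate 2, 41.7% without KO replicate 2, 38.5% without WT replicate 3 or KO replicate 1, 34.7% without WT replicate 1 and 31.3% without KO replicate 3. Centred on the array median and without KO replicate 3, the median difference over all genes was -0.12, so small falls there lie close to the shift of the whole array.

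The LPM of IL-4c-treated mice are separate arrays, with 2 of each genotype, and show whether the naive differences recur. Of 11634 genes, 247 were higher (2.12%) and 175 lower (1.5%) in KO there. Of the 62 genes raised in naive LPM, 32 were also called higher (51.6%; 13% of the 247) and 58 had the same sign, with a median of 0.71. Of the 157 lowered genes, 14 were also called lower (8.92%; 8% of the 175), 116 had the same sign, and the median was -0.16. The median rise there was near its naive size and the median fall well below it. Without KO replicate 3 the shares were 28 of 51 (54.9%) and 14 of 112 (12.5%).

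Stab1 read 5.66 and 6.04 in WT and 9.38 and 9.18 in KO with IL-4c (3.43 ± 0.22, adjusted p = 7.14e-07), close to its naive difference. Rcn3 rose from 5.15 and 4.85 to 8.45 and 8.51 (3.48 ± 0.27, adjusted p = 5.95e-06), and P2ry6 from 4.14 and 4.23 to 7.63 and 6.31 (2.78 ± 0.32, adjusted p = 0.000111). Tlr1, Folr2, Cd163, Gpr183, Pparg, Cp, Emp1 and Tns1 were also called higher, by 0.97 to 2.12. Lyve1 was not: it read 10.10 and 9.87 in WT and 11.05 and 10.11 in KO (0.60 ± 0.39, adjusted p = 0.478), levels above those of naive WT. Of the 29 Maf-associated genes 14 were called higher with IL-4c, with a median of 0.71, and Maf was among them (0.73, adjusted p = 0.0463).

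Among the falls, Pglyrp1 (-2.73 ± 0.38, adjusted p = 0.000718), Lrg1 (-1.61, 0.00365), Hdc (-1.25, 0.0126), Me1 (-1.74, 0.00145), Id2 (-1.96, 0.000544), Pla2g7 (-1.27, 0.000676), Glrx (-0.85, 0.00602) and Bhlhe40 (-0.93, 0.0132) were called again. Stard13, Nedd4, Stk26 and Cav1 were not, and their levels in WT with IL-4c (4.36 and 4.51, 6.45 and 6.50, 4.11 and 4.38, and 4.96 and 5.14) were below those in naive WT. Chil3 read 12.39 to 12.55 on all 4 IL-4c arrays.

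**Figure D5:**
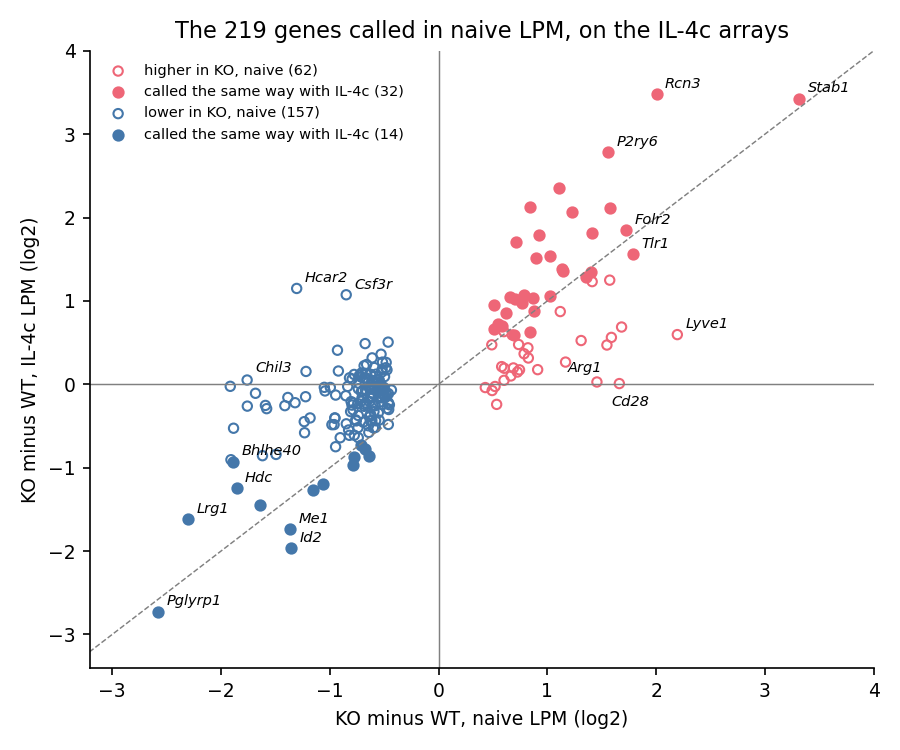
KO minus WT difference in naive LPM (horizontal axis) and in IL-4c LPM (vertical axis), in log2 units, for the 219 genes called in naive LPM; filled points are called the same way on the IL-4c arrays, and the dashed line marks equal differences. Of the raised genes 32 of 62 are filled, and of the lowered genes 14 of 157, most of which lie near 0 on the vertical axis.

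A test of the difference between the naive and the IL-4c effect called 64 of 11634 genes (0.55%), 17 with a higher naive effect (0.146%) and 47 with a lower one (0.404%). Among named genes it called Arg1, whose naive rise of 1.46 stood against 0.03 with IL-4c (12.25 and 12.30 in WT, 12.36 and 12.24 in KO; difference of effects 1.43 ± 0.25, adjusted p = 0.0131). It also called Nedd4 (-1.50 ± 0.21, adjusted p = 0.00372), Stard13 (-1.36 ± 0.24, 0.0152), Stk26 (-1.34 ± 0.23, 0.0134) and Tmc3 (1.08 ± 0.21, 0.0254). Csf3r differed most plainly, since it fell by 0.85 in naive LPM and rose by 1.07 with IL-4c, from 5.88 and 5.32 to 6.67 and 6.67 (adjusted p = 0.00255 for the difference). It was the 1 gene of the 219 called in opposite directions.

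In naive AM, 14 genes were called (0.12%), 6 of them higher in KO (0.0516%) and 8 lower (0.0688%). Of the 62 raised genes 1, Osbpl3, was also called higher there, and of the 157 lowered genes 2 were called lower (Bhlhe40 and Mfsd6) and 1, Csf3r, higher. With 2 arrays a group AM had fewer arrays than naive LPM, so the effects were also compared directly, which called 29 genes (0.249%), 9 with a higher effect in naive LPM (0.0774%) and 20 with a lower one (0.172%). Stab1 read 4.69 and 4.67 in WT AM and 4.50 and 3.97 in KO AM, and its effect differed from that in LPM by 3.76 ± 0.28 (adjusted p = 7.61e-06). Tlr1, Rcn3, Tmc3, Arg1, Pglyrp1, Lrg1, Stard13, Nedd4, Stk26, Pla2g7 and Csf3r differed as well. Most of these genes were dim in WT AM. Stab1, Tlr1 (3.11 and 3.33), Rcn3, Tmc3, Stard13, Nedd4 and Stk26 (3.84 and 3.75) were below the array median there, and Arg1 and Pglyrp1 were near it. A fall from such levels can hardly be measured.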

How the data were processed

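Log2 expression values per probe set of an Affymetrix mouse gene array were deposited by the authors for 16 arrays, summarised with RMA per the submitters' processing notes, with no version given there. Probe sets (30177) were named through the platform annotation: 21789 had 1 gene symbol, 1621 several and 6767 none, and those with 1 symbol covered 19938 genes. Dim genes (8304), which exceeded the array median on fewer than 2 of the 16 arrays of any group, were left out, leaving 11634. Arrays were grouped by their titles. A model of 7 group means was fitted to all 16 arrays with limma 3.58.1 (R 4.3.3), p-values were adjusted over all tested genes (Benjamini-Hochberg), and a gene was called at an adjusted p under 0.05. The number of arrays limits the precision. Tables and figures used Python 3.11.15 and matplotlib 3.10.9.

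The genes named were Bhlhe40, Bhlhe41, Maf and Gata6, the 15 largest rises and 15 largest falls among calls whose arrays did not overlap, the 2 called members of each function list with the largest difference in each direction, the 6 genes highest and the 6 lowest on KO replicate 3 against the other KO arrays, and the 6 lowest p called only with or only without that array. Predicted genes were left out, and further members of a described list may be named. The gene lists and members were chosen with earlier results of these data known. On simulated data (20 runs on 11634 genes, 200 changed) the naive LPM comparison recovered 56.9% of 1.5-fold and 97.6% of 2-fold changes, and 5.72% of its calls were false. The simulated noise was independent, with the same spread for a gene on every array and no shift of whole arrays. These rates therefore do not cover the differences in array quality and scaling described above. Alternatives were each array left out, other scalings, filters on dim genes, probe set averaging, variance models, array weights, a replicate block, and fits on only the arrays compared. Whether the replicate numbers pair the arrays was checked from the deviations of same-numbered arrays (r = 0.07, 0.01 and -0.14), and they were treated as unpaired.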

Additional observations from a re-analysis of the deposited data

Results flagged for a closer look

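The genotype effect (KO minus WT) in naive LPM differed from that in another setting for 14 of the named genes, by a test of the difference in limma (adjusted p under 0.05); values are the naive effect minus the other, in log2 units, with SE. No explanation was tested for any of them.

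Against AM, the effect was larger in naive LPM for Stab1 (3.76 ± 0.28, adjusted p = 7.61e-06), Tlr1 (1.97 ± 0.27, 0.00327), Rcn3 (1.81 ± 0.35, 0.0469), Tmc3 (1.60 ± 0.21, 0.00167) and Arg1 (1.58 ± 0.25, 0.00887). It was more negative for Pglyrp1 (-2.51 ± 0.49, 0.0469), Lrg1 (-2.28 ± 0.35, 0.00849), Csf3r (-2.13 ± 0.24, 0.000696), Stard13 (-1.98 ± 0.24, 0.00115), Nedd4 (-1.83 ± 0.21, 0.000696), Stk26 (-1.55 ± 0.23, 0.00752) and Pla2g7 (-1.55 ± 0.23, 0.00585). In WT AM, Stab1, Tlr1, Rcn3, Tmc3, Stard13, Nedd4 and Stk26 were below the array median, and Arg1 and Pglyrp1 were near it. A fall in AM can hardly be measured from such levels.

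Against IL-4c LPM, the effect was larger in naive LPM for Arg1 (1.43 ± 0.25, adjusted p = 0.0131) and Tmc3 (1.08 ± 0.21, 0.0254). It was more negative for Hcar2 (-2.45 ± 0.46, 0.0211), Csf3r (-1.92 ± 0.24, 0.00255), Nedd4 (-1.50 ± 0.21, 0.00372), Stard13 (-1.36 ± 0.24, 0.0152), Stk26 (-1.34 ± 0.23, 0.0134) and Fcgr3 (-0.97 ± 0.18, 0.0184). Hcar2, which fell by 1.30 in naive LPM, had a difference of 1.15 with IL-4c that did not pass by itself (adjusted p = 0.089).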

How the results depend on the processing

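The count of 219 calls in naive LPM was 75 to 163 with a naive array left out and 419 with array weights. The 62 rises became 26 to 51 and 104 in the same order. The 157 falls became 40 to 112 and 315, and were 98 after quantile normalization, 94 after centring on the tested genes (an alternative chosen after seeing the data) and 243 with an intensity trend and robust variance. The 64 genes whose effect differed between naive and IL-4c LPM became 109 with the trend and robust variance and 20 to 124 with an array left out. The 29 that differed between naive LPM and AM became 45 with the mean of probe sets, 61 with array weights, 62 with only the arrays compared and 9 to 57 with an array left out. The replicate block called 177 genes in naive LPM (58 higher, 119 lower), but the numbers do not pair the arrays. No named gene that was called changed sign in any alternative run. With a naive array left out this was fixed in advance, because the WT and KO arrays of the called genes did not overlap. Medians of lists did: of 41 lists, 12 changed sign after quantile normalization, 6 after centring on the array median, 7 after centring on the tested genes and 4 without KO replicate 3, all with medians within 0.085 of 0 in the deposited values. The cause of these changes was not tested, and fewer arrays are left in each left-out fit. Genes near the array median are limited by signal over background.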
